A study of Homo sapiens with 20 samples.

Results

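In LNCaP cells, a human prostate cancer cell line, 1165 genomic regions carried the histone mark H3K4me3 in both libraries from cells given control siRNA and in no library from cells given CTCF siRNA. They were chosen by the H3K4me3 region lists themselves. The regions of the 4 LNCaP H3K4me3 lists were merged wherever they shared at least 1 bp on chromosomes 1 to 22 and X, which gave 73503 merged regions, and those with this pattern of calls were kept. They made up 1.58% of the merged regions. The opposite pattern, with calls in the CTCF siRNA libraries alone, was held by 2937 regions (4.00%). Another 26802 regions were called in all 4 libraries, and 6349 were called in 1 control and 1 CTCF siRNA library. That the 1165 regions lack H3K4me3 calls after CTCF siRNA is their definition and not a finding, and no test was made of it. Their number rests on all 4 libraries. Without control replicate 1 it was 7404, without control replicate 2 it was 3846, and without CTCF siRNA replicate 2 it was 3404, since fewer libraries then had to be met.

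Cells were transfected with a pool of CTCF siRNAs or of non-targeting siRNAs, each at 20 nM, and were split and transfected again before collection at 144 h. H3K4me3, H3K27ac and CTCF were profiled by ChIP-seq in 2 libraries per treatment. The H3K4me3 lists held 36638 and 48606 regions for the control libraries and 41245 and 59921 for the CTCF siRNA libraries, so the longest list was one of those in which the 1165 regions had to be absent. The lists hold no read counts, so a missing region is one that did not reach the caller's threshold. By how much the level of the mark differed at any of them cannot be read from the lists. The study compared read counts between treatments at peaks found in at least 2 samples. It reports that only a small share of H3K4me3 peaks changed in level. Which of the 1165 regions are among those is not known here. The CTCF lists held 38018 and 46365 peaks for the control libraries, and those of the CTCF siRNA libraries 3732 and 7736. All 12 genes used as prostate luminal markers, KLK3 and KLK2 among them, had an H3K4me3 region at a start in every library, and the 3 basal prostate genes TP63, KRT5 and KRT14 had none. Of 8 fibroblast genes, 1 to 4 per library had a region at a start, COL1A1 in all 4 libraries, and of 4 leukocyte genes 0 or 1 per library had one.

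H3K4me3 is placed mainly on the nucleosomes that flank active transcription starts, where it forms broad domains, and narrow or weak H3K4me3 is also found at enhancers and at other open chromatin. H3K27ac marks active promoters and enhancers. CTCF is a zinc finger protein that binds a long DNA motif, stops cohesin as it extrudes chromatin loops and orders the nucleosomes on both sides of its sites. A peak of CTCF in both control libraries, merged, is called a control site here, and a control site that also has a peak in each CTCF siRNA library is called persistent.

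Inside the 1165 regions lay 149 control CTCF sites, in 146 of them. The sequences of 8 of these sites are shown, 4 that were not persistent and 4 that were. The 4 that were not persistent were still called in CTCF siRNA replicate 2, at fold enrichments from 6.06 to 14.0. The 105 sites called in neither CTCF siRNA library are thus not represented. The first 4 are the sites with the highest control fold enrichment that held a match to the 14-base CTCF core consensus motif, lay outside untranslated regions and were not persistent. The other 4 are the persistent sites with the highest control fold enrichment under the same conditions. Each is given 5′ to 3′ on the strand of the motif, with the motif match in capitals and 30 bases on each side.
GOLGA6B intergenic site: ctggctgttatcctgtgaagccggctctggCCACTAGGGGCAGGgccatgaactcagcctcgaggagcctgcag
LINC02074 intergenic site: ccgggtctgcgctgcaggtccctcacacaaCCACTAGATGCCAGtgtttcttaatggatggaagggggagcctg
ADAM15 start site: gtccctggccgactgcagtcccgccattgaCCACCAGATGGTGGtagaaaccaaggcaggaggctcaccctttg
GABRG3 intron site: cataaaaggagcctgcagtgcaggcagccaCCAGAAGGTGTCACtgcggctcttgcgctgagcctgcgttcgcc
PTPRN start site: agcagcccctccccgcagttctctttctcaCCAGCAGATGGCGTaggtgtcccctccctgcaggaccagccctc
CACNB4 intron site: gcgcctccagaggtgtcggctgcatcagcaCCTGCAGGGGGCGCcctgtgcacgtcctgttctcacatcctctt
ENSG00000251088 intron site: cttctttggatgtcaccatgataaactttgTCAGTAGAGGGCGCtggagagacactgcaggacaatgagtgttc
PCAT19 exon site: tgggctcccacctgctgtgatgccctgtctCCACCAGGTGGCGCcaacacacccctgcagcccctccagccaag

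On hg19 these windows lie, in the same order, at chr15:72963322-72963395, chr17:72172984-72173057, chr1:155034117-155034190, chr15:27604128-27604201, chr2:220163559-220163632, chr2:152882488-152882561, chr3:98062907-98062980 and chr19:41955403-41955476. The first 7 are read from the minus strand and the PCAT19 window from the plus strand. Only the PCAT19 site matched the consensus at every base. The GOLGA6B and GABRG3 sites differed from it at 2 bases, the most that was allowed, and the others at 1. Both strands were searched within 100 bp of each summit. Of the 149 control sites in the regions, 115 (77.2%) had such a match, against 74.0% of all 33377 control sites and 5.20% of windows of the same length 1000 bp to the side of a control site.

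The regions were narrow, far from transcription starts and poor in GC. Their median width after merging was 1050 bp, with the middle 80% between 800 and 1400 bp. In the lists themselves the median width of the same regions was 750 bp in control replicate 1 and 950 bp in control replicate 2. Regions called in all 4 libraries had a median width of 2350 bp, and 60.8% of them were wider than 2000 bp, against 0.515% (6 regions) of the control-only regions. Regions called in 1 library of each treatment, which are supported by as many libraries, had a median of 1100 bp. The score given with each region, whose meaning the lists do not state, ran from 0.032 to 0.103 at the control-only regions in control replicate 1 and from 0.018 to 0.093 in control replicate 2. None had a score of 0.001 or less, which 20.9% and 15.4% of the regions of those lists had. The same was true of regions called in 1 library of each treatment. Their scores ran from 0.032 to 0.103 in control replicate 1 and from 0.020 to 0.093 in control replicate 2.

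**Figure D1:**
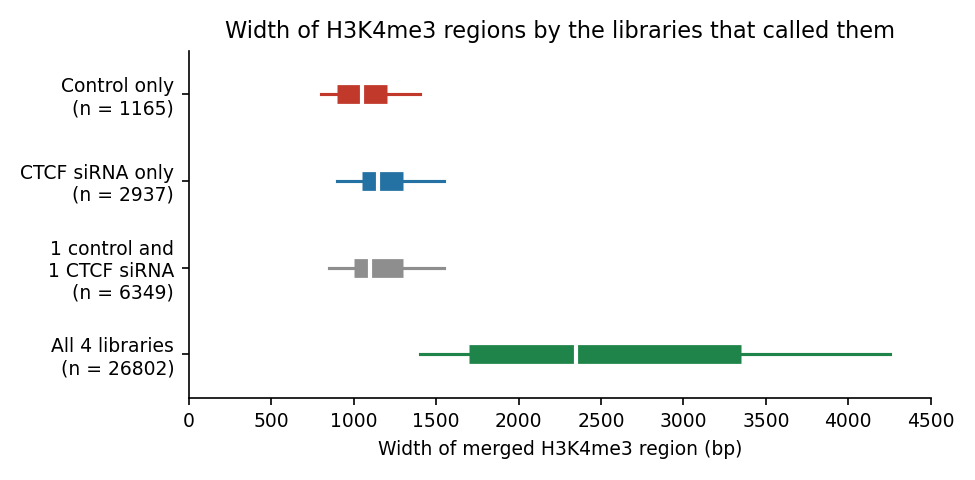
Width in bp of merged H3K4me3 regions, by the libraries that called them. Thick bars span the 25th to 75th percentile, thin lines the 10th to 90th percentile, and the white mark is the median, which is 1050 bp for the 1165 control-only regions and 2350 bp for the 26802 regions called in all 4 libraries.

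A transcript start lay in the region or within 1000 bp of it at 142 of the 1165 regions, or 12.2% (95% Wilson interval 10.4 to 14.2), and inside it at 6.18%. Of the regions called in all 4 libraries 58.2% had a start that close, of the regions found only after CTCF siRNA 18.0% (16.6 to 19.4), and of the regions called in 1 library of each treatment 14.9% (14.1 to 15.8). These intervals, and those that follow, cover counting error over regions only, and regions are not replicates. Most control-only regions, 611 (52.4%), lay over 10000 bp from any start, with a median distance of 11103 bp. Each region was counted once, at the first of coding exon, untranslated region, noncoding exon, intron and intergenic sequence that it touched. Introns held 576 regions (49.4%) and intergenic sequence 370 (31.8%). Coding exons held 96 (8.24%), untranslated regions 49 (4.21%) and exons of noncoding transcripts 74 (6.35%). GC content had a median of 38.9% at the control-only regions, 44.3% at the regions found only after CTCF siRNA, 43.0% at those called in 1 library of each treatment and 48.6% at those called in all 4 libraries. CpG dinucleotides, which are dense at CpG island promoters, numbered 6.67 per 1000 bp at the median control-only region and 26.0 at the median region of all 4 libraries. The control-only set had the lowest GC content of the 4 sets, and the part of base composition in the pattern of calls was not tested.

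**Figure D2:**
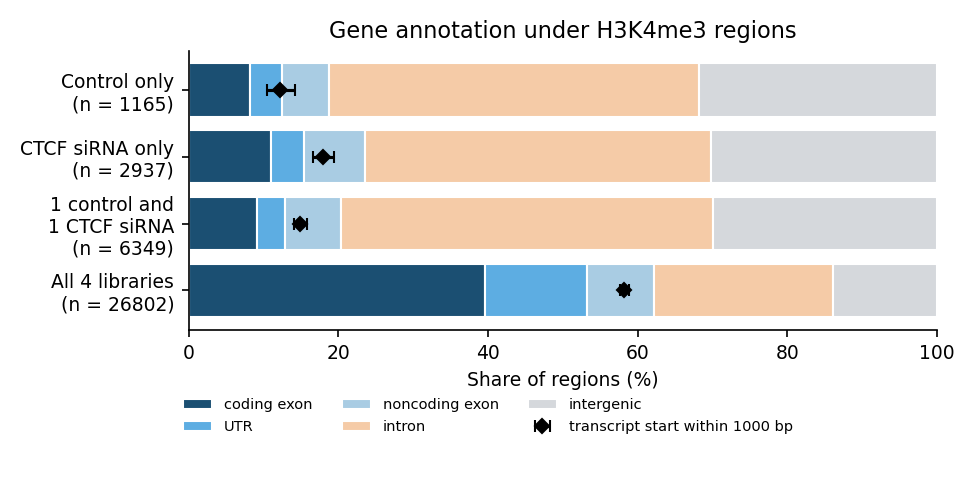
Share of H3K4me3 regions (%) by the first annotation they touch, in the order coding exon, untranslated region, noncoding exon, intron and intergenic, for each pattern of calls. Black diamonds give the share with a transcript start in the region or within 1000 bp, with 95% Wilson intervals, which is 12.2% for the control-only regions and 58.2% for the regions called in all 4 libraries.

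Across chromosomes, the control-only regions made up between 0.812% (chromosome 22, 6 regions) and 3.35% (chromosome 8, 70 regions) of the merged regions called in at least 2 libraries, and 2.56% genome-wide. Chromosome 19 had 22 regions (1.27%) and chromosome 2 had 98 (3.19%).

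At protein-coding genes, 83 regions lay at a transcript start, which means here that the start was in the region or within 1000 bp of it, and involved 85 genes, or 0.423% of the 20090 coding genes annotated. For 56 of the 85 (65.9%), a region called in all 4 libraries also lay at a start of the same gene, and among all coding genes 67.2% had such a region. The 56 include the DNA methyltransferase gene DNMT3A, the DNA damage kinase gene ATM and the Hedgehog receptor gene PTCH1, named after their values were seen. H3K27ac was called in no library at the DNMT3A region, in all but control replicate 2 at the ATM region and in all 4 at the PTCH1 region. The other 29 genes had no region called in all 4 libraries at a start. They were singled out after the calls were seen, and involve 29 regions. Of these, 11 held a control CTCF site, 17 had no H3K27ac region in any library and 6 had one in all 4 libraries. A control CTCF site lay in 29 of the 142 regions with any transcript start and in 12.5% of all 1165 regions. H3K27ac was in no library at 36.6% and in all 4 at 38.0% of the 142 regions with any transcript start. The 29 genes include SOCS3, an inhibitor of cytokine signalling, AHRR, the repressor of the aryl hydrocarbon receptor, and FGF8, a secreted growth factor. They also include LRAT, which esterifies vitamin A, PRKCQ, a protein kinase C of T cells, and MYRF, a transcription factor of myelin genes.

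The region nearest to SOCS3 spanned chr17:76356351-76357300, lay 192 bp from the gene over a start of the divergent noncoding gene SOCS3-DT, and had no H3K27ac region in any of the 4 libraries. It held a control CTCF site with a fold enrichment of 35.4 and 21.1 in the control libraries, which had no peak in CTCF siRNA replicate 1 and 11.6 in CTCF siRNA replicate 2. At MYRF (chr11:61519851-61521200) the site inside had 27.5 and 5.85 in the control libraries and no peak after CTCF siRNA. The regions at AHRR, FGF8, LRAT and PRKCQ held no control CTCF site, although one with 22.6 and 36.7 in the control libraries and no peak after CTCF siRNA lay 102 bp from the FGF8 region, and, like those at SOCS3 and MYRF, had no H3K27ac region in any library.

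Of the 83 regions at coding starts, 2 had H3K27ac in the control libraries alone. This pattern was held by 2.11% of the 142 control-only regions with any transcript start and by 3.69% of all 1165. The 2 lay at HOOK2, an adaptor between organelles and microtubules, and at SMCHD1, a chromatin protein of X inactivation. The HOOK2 region (chr19:12876551-12877750) was 1050 and 1200 bp wide in the control libraries and had a GC content of 60.7%. The SMCHD1 region (chr18:2758001-2759000) was 550 and 1000 bp wide with a GC content of 33.7%, lay 603 bp from the nearest annotated start and was 1200 bp away from an H3K4me3 region of a CTCF siRNA library. Both genes also had a region of all 4 libraries at a start. Neither region held a control CTCF site, and the nearest lay 4809 bp away at HOOK2, where it was persistent, and 7251 bp away at SMCHD1, where it had no peak after CTCF siRNA.

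In 9 gene lists set up for prostate and chromatin biology, control-only regions lay at starts of 4 of 53 clustered protocadherin genes and of 1 of 26 interferon response genes. They lay at starts of none of the genes in the lists of androgen-induced genes (29 annotated), luminal transcription factors (16), CTCF and cohesin (19), enzymes of H3K4 methylation (19), the cell cycle (38), neuronal and neuroendocrine genes (22) and imprinted genes (28). In most of those lists nearly every gene had a region of all 4 libraries at a start, for example 38 of 38 cell cycle genes and 28 of 29 androgen-induced genes. The protocadherin list had 18 of 53. Of all coding genes annotated, 0.423% had a control-only region at a start, so lists of these sizes without one do not stand out. Since the lists were set with earlier results of these data known, the counts are a description.

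The clustered protocadherins are cell surface proteins of neurons, and CTCF sites at their promoters are known to take part in the choice of which is transcribed. The 4 genes with a control-only region at the start were PCDHB4, PCDHB11, PCDHB13 and PCDHGA3, all on chromosome 5. Another region of the beta cluster lay at the pseudogene PCDHB18P, so that 4 regions lay within 113600 bp. The PCDHB4 region (chr5:140501151-140501950) was 700 and 600 bp wide in the control libraries and held a CTCF site with a fold enrichment of 4.99 and 5.21. The PCDHB13 region (chr5:140593051-140594200) was 1000 bp wide in both and held a site with 7.53 and 8.55. The PCDHGA3 region (chr5:140722801-140724250) was 1350 and 1400 bp wide and held a site with 7.42 and 7.55. None of these 3 weak sites had a peak in a CTCF siRNA library or a match to the consensus motif. The PCDHB11 region (chr5:140578851-140579800) held no control site, and the nearest was 6651 bp away. H3K27ac was called at none of these regions in any library. No clustered protocadherin gene had a region found only after CTCF siRNA at a start. Of all coding genes annotated, 346 (1.72%) had one. The genes of this cluster resemble each other in sequence, and reads that map to several places were discarded.

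The other list gene was IRF9, which encodes the DNA-binding subunit of the interferon-activated complex ISGF3. The region there (chr14:24630101-24631200) also covers a start of RNF31, the catalytic subunit of the complex that builds linear ubiquitin chains, and was 1050 and 1100 bp wide in the control libraries. RNF31 also had a region of all 4 libraries at a start and IRF9 had none. A CTCF site in the region had a fold enrichment of 36.3 and 38.2 in control cells, no peak in CTCF siRNA replicate 1 and 9.77 in CTCF siRNA replicate 2. H3K27ac was called there in both control libraries and in 1 of the CTCF siRNA libraries, so this measure did not separate the treatments.

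Within gene bodies, 586 coding genes held a control-only region, 536 of them a single one. THSD7A had 5, and CEP112, DLG2, F5, MECOM, NAALADL2, RASAL2 and TUSC3 had 3 each. Most regions were isolated, 994 of the 1165 having no other within 100000 bp, while 68 pairs and 10 longer runs were found. The longest run was the 5 regions of THSD7A, a gene of a membrane protein with thrombospondin repeats, spread over 191550 bp of chromosome 7. They were 550 to 1050 bp wide in control replicate 1 and 550 to 1600 bp in control replicate 2, held no control CTCF site, and had H3K27ac in all 4 libraries at 2 and in control replicate 1 alone at 3. A run of 4 lay at chr7:61872001-61909300, in intergenic sequence 1549926 bp or more from a coding gene, with no H3K27ac at any of them and with H3K4me3 regions of CTCF siRNA libraries 150 to 2000 bp away. Another 4 lay near the end of the long arm of chromosome 4 (chr4:190471801-190681100), 0 to 1200 bp from a region of a CTCF siRNA library. An intron of NAALADL2 held a run of 3, one of which touched a region of a CTCF siRNA library.

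Of the 10 widest regions by their mean width in the control libraries, 3 lay at a start, all of noncoding genes. The widest lay in an intron of ANK3, the gene of the membrane adaptor ankyrin-G (chr10:62484301-62488200). It was 1850 bp wide in control replicate 1 and 3900 bp in control replicate 2, had H3K27ac in all 4 libraries, and lay 2000 bp from an H3K4me3 region of a CTCF siRNA library. The next, in an exon of the noncoding gene ENSG00000248346 (chr4:147896301-147898200), was 1550 and 1900 bp wide, with H3K27ac in all 4 libraries. The third, 18353 bp from the start of MIR4470 (chr8:62645701-62647500), was 1650 and 1800 bp wide, and also had H3K27ac in all 4. The 3 at starts were those of ENSG00000228086, RPL7AP35 and ENSG00000267262, which lie within the coding genes CDC14A, PREP and RFX2, and each had H3K27ac in all 4 libraries. None of the 10 held a control CTCF site.

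H3K27ac at the control-only regions did not separate the treatments. A region of H3K27ac overlapped 70.1% and 52.7% of them in the control libraries and 56.0% and 57.9% in the CTCF siRNA libraries. The control values lay on both sides of the CTCF siRNA values. The mean was 61.4% ± 12.3 (SD, n = 2) in control and 57.0% ± 1.40 (SD, n = 2) after CTCF siRNA, a difference of 4.46 percentage points (two-sided exact permutation test, p = 1.00). With 2 libraries against 2, this test cannot give a p below 0.33. The difference was -4.25 points without H3K27ac control replicate 1 and 13.2 points without H3K27ac control replicate 2, and in the larger sets found without H3K4me3 control replicate 1, H3K4me3 control replicate 2 and H3K4me3 CTCF siRNA replicate 2 it was -0.783, 0.611 and 1.81 points. In the comparison sets, with every library kept, the mean difference was -12.1 points at regions found only after CTCF siRNA. It was -4.58 points at regions called in 1 library of each treatment and -2.37 points at those called in all 4 libraries. The H3K27ac lists differ in length, from 70100 regions in control replicate 2 to 99158 in CTCF siRNA replicate 2. Shortened to equal length, they gave a difference of 12.1 points at the control-only regions (exact permutation test, p = 0.33). Both control libraries were then above both CTCF siRNA libraries.

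Region by region, 495 (42.5%) had H3K27ac in all 4 libraries and 290 (24.9%) in none. H3K27ac in the control libraries alone was found at 43 (3.69%, interval 2.75 to 4.93), and the opposite at 11 (0.944%, 0.528 to 1.68). Over all 127074 merged H3K27ac regions, 1.21% had the first pattern and 8.65% the second. At regions called in 1 library of each treatment the shares were 0.788% (0.598 to 1.04) and 2.30% (1.96 to 2.70), and at the regions found only after CTCF siRNA they were 0.170% and 5.89%. The control-only pattern of H3K27ac was thus the more frequent of the pair at control-only H3K4me3 regions and the rarer in each of the other sets. The count of 43 depends on the libraries required. It was 130 (11.2%) without H3K27ac control replicate 2 and 79 (6.78%) without H3K27ac CTCF siRNA replicate 2, and the share was 1.82% to 2.72% in the larger sets found without each of the H3K4me3 libraries in turn.

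Control-only regions with a control CTCF site overlapped H3K27ac less often than those without one, in 4 of 4 libraries. Among the 146 with a site, 34.2% and 24.7% had H3K27ac in the control libraries and 19.9% and 22.6% in the CTCF siRNA libraries. Among the 1019 without a site the shares were 75.3% and 56.7%, then 61.1% and 63.0%. At the regions with a site both control values were above both CTCF siRNA values, by 8.22 percentage points on average (p = 0.33 by the same exact test, its lower limit). H3K27ac was called in no library at 88 of the 146 (60.3%) and at 202 of the 1019 (19.8%). For regions of the other sets with a CTCF site, H3K27ac in control cells covered 45.5% and 36.0% at those found only after CTCF siRNA. It covered 55.3% and 51.9% at those called in 1 library of each treatment, and 78.3% and 75.7% at those called in all 4 libraries. Without a site the control values were 56.2% and 48.1%, 73.0% and 63.5%, and 83.5% and 80.4%, in the same order. In every library of each of these sets, too, regions with a site overlapped H3K27ac less often. The difference was largest in the control-only set.

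**Figure D3:**
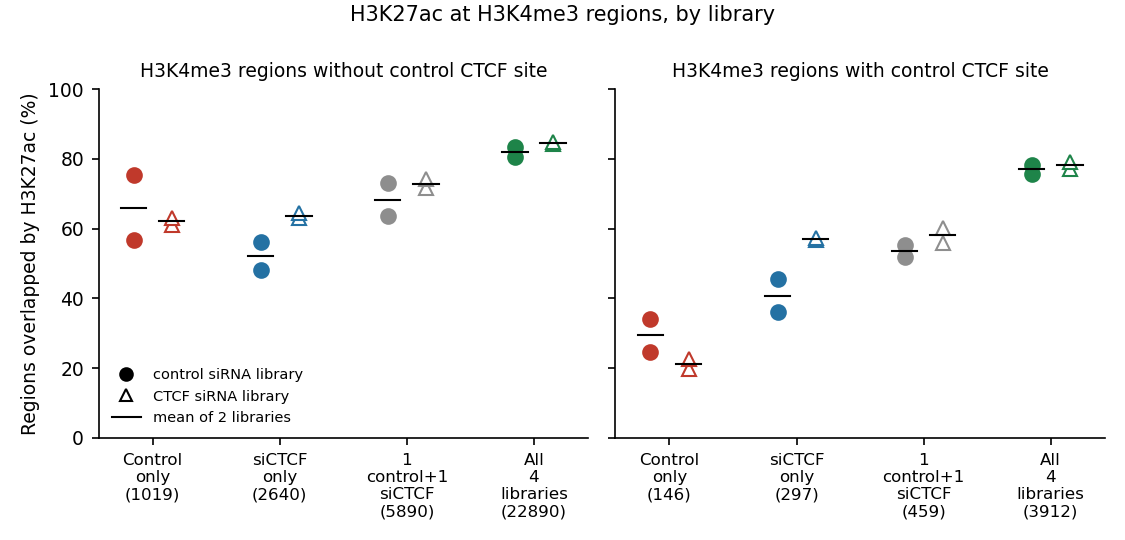
Share of H3K4me3 regions (%) overlapped by an H3K27ac region in each library, for regions without (left) and with (right) a control CTCF site. Filled circles are the 2 control siRNA libraries, open triangles the 2 CTCF siRNA libraries, lines their means and numbers in brackets the regions in each set; control-only regions with a CTCF site have the lowest values, between 19.9% and 34.2%.

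A control CTCF site lay in 146 of the 1165 regions, or 12.5% (10.8 to 14.6). For regions found only after CTCF siRNA the share was 10.1% (9.07 to 11.3), for those called in 1 library of each treatment 7.23% (6.62 to 7.89), and for the much wider regions of all 4 libraries 14.6% (14.2 to 15.0). Since a wider region has more room for a site, the shares were also taken within widths. Below 900 bp, 7.80% (4.93 to 12.1) of the control-only regions held one, against 9.86% (6.54 to 14.6) of those found only after CTCF siRNA and 4.24% (2.95 to 6.05) of those called in 1 library of each treatment. Between 900 and 1100 bp, 14.4% (11.5 to 17.9) of the control-only regions held one, against 6.11% (4.74 to 7.86) of those found only after CTCF siRNA, 6.58% (5.59 to 7.73) of those called in 1 library of each treatment and 7.04% (4.24 to 11.5) of those called in all 4 libraries. Between 1100 and 1400 bp the shares were 16.6% (13.1 to 20.8), 10.5%, 7.25% and 11.2%. Among the 128 control-only regions of 1400 bp or more, 3 held a site (2.34%), against 15.5%, 9.84% and 15.0% in the other sets. Without H3K4me3 control replicate 2, when regions needed only 1 control library, the share of all widths was 5.93%, and without H3K4me3 control replicate 1 it was 7.74%. Control-only regions with a site lay closer to transcript starts than those without, with median distances of 4806 and 12558 bp, and 19.9% and 11.1% of them had a start within 1000 bp. They were also richer in GC, with medians of 45.2% and 38.4%.

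Peaks in the CTCF libraries overlapped 13.7% and 14.2% of the control-only regions for the control libraries and 1.03% and 4.03% for the CTCF siRNA libraries. A site in these regions had a median control fold enrichment, the mean over both libraries, of 16.1, with quartiles of 10.9 and 21.2 and a range of 4.14 to 44.4. The median was 16.4 for sites in regions found only after CTCF siRNA, 13.7 for those in regions called in 1 library of each treatment and 12.3 for those in regions of all 4 libraries. A fold enrichment of 20 or more was held by 48 of the 149 sites (32.2%), against 22.3% of all control sites.

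After CTCF siRNA, 9 of the 149 sites were persistent, or 6.04% (3.21 to 11.1), against 9.26% of all 33377 control sites. The share was 29.7% (24.8 to 35.1) for sites in regions found only after CTCF siRNA, 18.2% (14.9 to 21.9) for those in regions called in 1 library of each treatment and 11.2% (10.2 to 12.2) for those in regions of all 4 libraries. Strong sites showed the widest gap. With a control fold enrichment of 20 or more, 4 of 48 sites in control-only regions were persistent (8.33%, 3.29 to 19.6), against 28.0% of all control sites of that strength and 53.3% (44.4 to 62.0) of those in regions found only after CTCF siRNA. Between 10 and 20, 4 of 72 (5.56%) were persistent, against 6.18% of all, and below 10, 1 of 29 (3.45%) against 1.18%.

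The low share of persistent sites rested on the libraries used. In the larger sets of regions found without H3K4me3 control replicate 1, H3K4me3 control replicate 2 or H3K4me3 CTCF siRNA replicate 2 it was 10.7%, 9.91% and 12.1%, above the share of all control sites, and without H3K4me3 CTCF siRNA replicate 1 it was 7.78%, below it. Among the CTCF libraries it rested on CTCF siRNA replicate 1. In that library, 9 of the 149 sites had a peak (6.04%), against 10.0% of all control sites. In CTCF siRNA replicate 2, 44 had one (29.5%, 22.8 to 37.3), against 20.6% of all. A peak in either library was found at 29.5% of the sites in control-only regions and 21.4% of all control sites, and no peak in either at 105 sites (70.5%, 62.7 to 77.2), against 78.6% of all control sites. Counted this way, sites of 20 or more in control-only regions had a share of 58.3% (44.3 to 71.2), against 58.6% of all sites of that strength. In regions found only after CTCF siRNA the share was 75.8% (67.4 to 82.6). Whether control-only regions have fewer CTCF sites called after CTCF siRNA than other control sites therefore depends on which of the 2 libraries is asked. The 2 libraries differ in the number of peaks, 3732 and 7736. They also differ in depth, as the study lists far fewer reads for CTCF siRNA replicate 1 than for any other LNCaP CTCF library. The part of depth in the missing peaks was not tested.

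**Figure D4:**
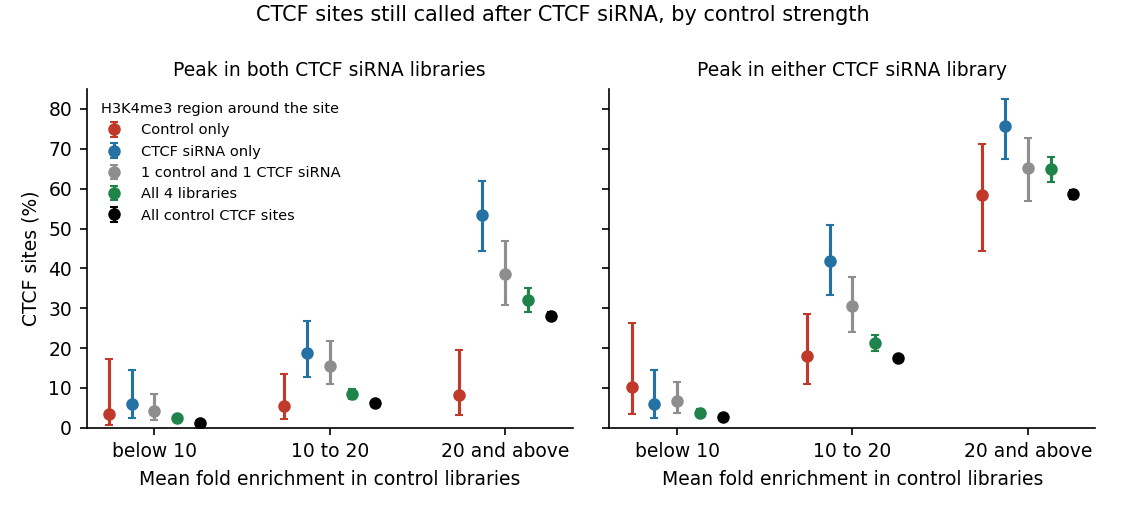
Share of control CTCF sites (%) with a peak in both (left) or in either (right) CTCF siRNA library, by mean control fold enrichment and by the H3K4me3 region around the site. Bars are 95% Wilson intervals over sites; at 20 and above, sites in control-only regions are at 8.33% on the left, below the 28.0% of all control sites, and at 58.3% on the right, beside 58.6%.

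The strongest CTCF site in a control-only region belonged to a region 710 bp from GOLGA6B ( chr15:72962651-72963950, the first sequence above). The control libraries gave it a fold enrichment of 40.3 and 48.6, with no peak in CTCF siRNA replicate 1 and 8.55 in CTCF siRNA replicate 2. This region had H3K27ac in the control libraries alone. The next strongest, between LINC02074 and RPL38 on chromosome 17, had 43.4 and 45.0 in control cells, then no peak in CTCF siRNA replicate 1 and 14.0 in CTCF siRNA replicate 2, and its region (chr17:72172551-72173250) had no H3K27ac. At ADAM15, a gene of a membrane metalloprotease, the site had 37.1 and 46.0 in control cells and 13.7 in CTCF siRNA replicate 2 alone. The ADAM15 region (chr1:155033601-155034500) lay over a coding exon, 136 bp from an annotated start, kept H3K27ac in all 4 libraries and was 700 bp from an H3K4me3 region of a CTCF siRNA library.

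Of the 10 regions with the strongest sites, 1 held a persistent site, 7 held a site with a peak in CTCF siRNA replicate 2 alone, and 2 a site with a peak in neither. The 2 without a peak after CTCF siRNA were at a start of FBXL19, which encodes a protein that binds CpG-rich DNA (29.3 and 37.6 in control cells, region chr16:30953201-30954100), and in a coding exon of ADAM11 (26.0 and 39.1, region chr17:42856101-42857300). An intron of GABRG3, a GABA receptor subunit gene, held a site with 33.3 and 43.2 in control cells and 6.06 in CTCF siRNA replicate 2 (region chr15:27603401-27604550). It was the only one of the 10 without a CTCF site at the same place in control IMR90 fibroblasts. An untranslated region of P4HA2, a collagen prolyl hydroxylase gene, held a site with a mean of 33.1 over the control libraries and 10.2 in CTCF siRNA replicate 2. H3K27ac was called in no library at 5 of the 10 regions, those at LINC02074, PLEKHG4B, GABRG3, P4HA2 and ADAM11.

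The 9 persistent sites lay in 9 regions, 6 of which had no H3K27ac in any library. The strongest was in an untranslated region of PLEKHG4B (chr5:188101-189000), with a fold enrichment of 36.4 and 41.0 in the control libraries, which was 6.93 and 22.8 in the CTCF siRNA libraries. At a start of PTPRN, which encodes a protein of neuroendocrine secretory granules, the site had 30.2 and 31.4, then 5.56 and 24.7 (region chr2:220163251-220164350). In an intron of CACNB4, a calcium channel subunit gene, it had a mean of 30.3 over the control libraries, then 10.7 and 13.4 (region chr2:152881951-152882900). The site in the noncoding gene PCAT19 had 16.3 and 22.4, then 10.1 and 16.3 (region chr19:41954651-41955750). Both values after CTCF siRNA were below both control values at 6 of the 9, and at PCAT19 the value of CTCF siRNA replicate 2 was level with that of control replicate 1.

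At the 2 weakest sites both values after CTCF siRNA were above both control values. A site 3207 bp from DMBX1, a homeobox gene, had 9.16 and 11.4 in control cells, then 16.1 and 14.6, and a site near DDX11L8 at the end of chromosome 12 had 4.66 and 5.45, then 6.49 and 7.90. Neither had a match to the consensus motif. Fold enrichment is relative to the local background of its own library and is not scaled between libraries, so these values order sites within a library and do not measure a change between libraries. The region beside DMBX1 had H3K27ac in control replicate 1 and both CTCF siRNA libraries, and the one near DDX11L8 in all 4 libraries. Also persistent was a site with 11.5 and 11.6 in control cells in a coding exon of the muscle gene TTN, near the start of an annotated TTN transcript.

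IMR90, a human lung fibroblast line, was given the same siRNAs with another transfection reagent, and CTCF was profiled in 2 libraries per treatment. A control CTCF site was found in IMR90 at 119 of the 149 sites in the LNCaP control-only regions (79.9%, 72.7 to 85.5), against 72.6% of all LNCaP control sites. For sites in regions found only after CTCF siRNA it was found at 76.6%. For those in regions called in a single library of each treatment it was found at 69.2%. Of the 119, 87 were persistent in IMR90 (73.1%, 64.5 to 80.3), against 62.2% of all LNCaP control sites found in IMR90. The share was 78.4% (72.7 to 83.3) for sites in regions found only after CTCF siRNA. It was 69.8% for those in regions called in a single library of each treatment. A share above that of all sites was thus not particular to control-only regions. These shares were not split by fold enrichment. The study reports a weaker knockdown of CTCF mRNA in IMR90 than in LNCaP, and read depth also differed. Shares of persistent sites were therefore not compared between the lines. Of the 9 sites in control-only regions that were persistent in LNCaP, 8 were found and persistent in IMR90, all but the one beside DMBX1. The H3K4me3 lists used here are all from LNCaP.

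Few CTCF summits lay at the centre of the control-only regions. Among regions of up to 1400 bp, 21 of 144 summits (14.6%, 9.74 to 21.3) lay within 100 bp of the centre, while 56 (38.9%) lay 100 to 200 bp from it and 48 (33.3%) lay 200 to 300 bp from it. In regions found only after CTCF siRNA, 34.6% (28.6 to 41.1) lay within 100 bp of the centre, in regions called in 1 library of each treatment 24.7% (20.5 to 29.3), and in regions of all 4 libraries 24.3% (20.1 to 29.1). Few summits in control-only regions lay 400 bp or more from the centre, 2 at 400 to 500 bp and 5 beyond. A narrow region leaves little room for such distances, and distances were not scaled to width. Before the limit of 1400 bp, control-only regions with a site had a median width of 1050 bp. The median was 1200 bp for those found only after CTCF siRNA, 1150 bp for those called in 1 library of each treatment and 2750 bp for those of all 4 libraries. In the region with the strongest site, near GOLGA6B, the summit was 64.0 bp from the centre, and at IRF9 and PCAT19 it was 276 and 240 bp. The median distance was 193 bp in control-only regions, 167 bp in those found only after CTCF siRNA, 183 bp in those called in 1 library of each treatment and 181 bp in those of all 4 libraries.

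**Figure D5:**
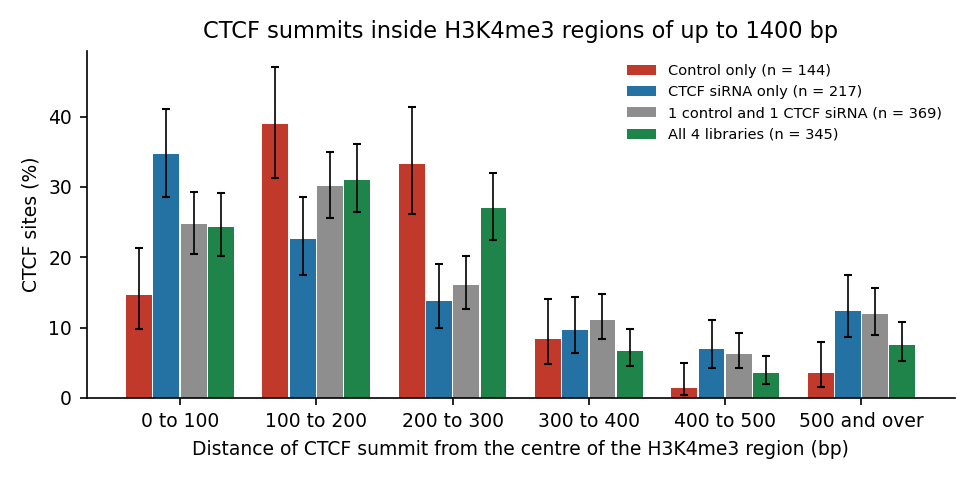
Distance in bp of CTCF summits from the centre of the H3K4me3 region that holds them, as a share (%) of the sites in each set, for regions of up to 1400 bp, with 95% Wilson intervals over sites. Control-only regions have 14.6% of summits within 100 bp of the centre and 38.9% at 100 to 200 bp, and regions found only after CTCF siRNA have 34.6% and 22.6%.

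Beyond the regions themselves, a control CTCF site lay within 10000 bp of 329 control-only regions (28.2%, 25.7 to 30.9), those with a site inside included. The share was 28.0% (26.9 to 29.1) for regions called in 1 library of each treatment, 31.5% (29.8 to 33.2) for those found only after CTCF siRNA and 37.5% for those called in all 4 libraries. Among the 1019 control-only regions with no site inside, 183 (18.0%, 15.7 to 20.4) had one within 10000 bp, against 22.4% (21.3 to 23.4) and 23.8% (22.2 to 25.4) of the regions without a site called in 1 library of each treatment and found only after CTCF siRNA. The median distance from a control-only region to a control CTCF site was 28473 bp. Most control-only regions, then, had no CTCF site called inside or close by.

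The rule leaves out a region as soon as 1 bp is shared with a region of a CTCF siRNA library. The nearest such region lay at a median distance of 9600 bp from the control-only regions, within 1000 bp of 148 of them (12.7%) and over 10000 bp from 569 (48.8%). Just inside the rule were 7 regions that touched a region of a CTCF siRNA library without sharing a base, of which 4 had H3K27ac in all 4 libraries and none held a control CTCF site. Of these 7, 3 lay at a start of ENSG00000279628 (chr15:20864151-20865150), in an intron of SMAD6 (chr15:67059201-67060250) and in an untranslated region of NCAPH (chr2:97006001-97007300). The 3 just outside it shared 50 bp with a region of 1 CTCF siRNA library and lay in an intron of LINC01725 (chr1:84136801-84138550), in an intron of AP1AR (chr4:113171551-113173250) and near TLE3 (chr15:70279451-70281100).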

How the data were processed

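For each LNCaP H3K4me3 and H3K27ac library the authors called regions with PeakRanger at default parameters, after aligning reads to hg19 with Bowtie and discarding duplicate and multi-mapping reads. The deposited lists give positions and a score with no stated meaning, used here only to rank regions. For CTCF, the authors called peaks with MACS2 at an FDR of 0.05, and no input library is stated. The deposited CTCF lists give each peak's fold enrichment, a ratio to local background, and its q-value on a −log10 scale. All lists were made per library, without pooling. The lists hold no read counts, so depth sets which regions are listed in a way that cannot be corrected here. The 4 low-cell IMR90 lists were not used here.

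From the lists, regions that shared 1 bp or more were joined, on chromosomes 1 to 22 and X. The sample labels gave the groups and replicate numbers. Transcripts came from GENCODE release 44 lifted to hg19, sequence from the same build, and coordinates count from 1. A region's place was the first of coding exon, untranslated region, noncoding exon, intron and intergenic that it touched. Shares carry 95% Wilson intervals, and shares per library were compared by the two-sided exact permutation test over libraries. The study's methods call the replicates biological duplicates, while the labels give only replicate numbers, and p-values measure only the spread between these libraries. Python 3.11.15, numpy 2.4.6, scipy 1.17.1, pysam 0.24.0 and matplotlib 3.10.9 were used. Merging was tested on 1500 simulated regions, all of which were classed as simulated.

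The control-only regions, gene lists, markers and tests were chosen with earlier results of these data known. Regions named are the 10 widest by mean width in the control libraries, those at coding starts with H3K27ac in control only, the 10 with the strongest CTCF sites, all with persistent sites, 3 at the limit of the rule on each side (inside it, the first 3 of 7 tied regions when chromosome names are sorted as text), those at starts of list genes, and the first 5 runs of at least 3 within 100000 bp. Genes with no region of all 4 libraries at a start and genes holding 3 or more regions were named after their values were seen. The alternatives were other merging, overlaps, list lengths, score limits, start windows, CTCF thresholds and distances, and leaving out each library. Values of some single genes are not reported here.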

Additional observations from a re-analysis of the deposited data

How the results depend on the processing

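The lists carry calls without reads, which limits every result to what passed a threshold. Leaving out each H3K4me3, H3K27ac or CTCF library in turn, where it bears on the value, gave 1730 to 7404 regions, a median width of 700 to 1100 bp, and 9.49% to 15.7% with a start within 1000 bp. H3K27ac in control only was at 1.82% to 11.2% of the regions, a control CTCF site in 5.93% to 14.2% and within 10000 bp of 23.9% to 34.9%, and 5.29% to 29.5% of the sites were persistent. The difference in H3K27ac between control and CTCF siRNA ran from -4.25 to 13.2 percentage points, and was below 0 without H3K4me3 control replicate 1 (-0.783) and without H3K27ac control replicate 1. It was above 0 under every other alternative tried for it. Replicate numbers are shared between treatments without a stated link, and with the replicate block the difference was 4.46 points, 14.2 in replicate 1 and -5.24 in replicate 2.

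Keeping only the 50% of each H3K4me3 list with the lowest scores left 178 regions of median width 1575 bp, of which 25.8% had a start within 1000 bp, 23.0% a control CTCF site and 35.4% one within 10000 bp. Lists of equal length gave 14.4% with a start and 2.75% with H3K27ac in control only when lower scores came first, and 1764 regions, 14.9% and 2.72% when higher scores came first. An overlap of 50% of the shorter H3K4me3 region gave a median width of 750 bp, measured on control replicate 1. The start share was 6.18% inside the region, 30.9% within 5000 bp and 7.12% for coding transcripts. H3K27ac lists of equal length put H3K27ac in control only at 6.95% of the regions. A CTCF peak in either control library put a site in 15.5% of the regions and within 10000 bp of 37.4%, and a peak in either CTCF siRNA library counted 29.5% of sites as persistent. A site lay within 5000 bp of 21.4% and within 50000 bp of 66.4%. Merging H3K4me3 regions up to 1000 bp apart (1049 regions), all contigs (1167 regions) and a CTCF q-value of at most 0.001 kept every share within its reported interval. The number of regions changed with how many libraries and listed regions were required, and its causes were not tested.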
